A study of Mus musculus with 8 samples.

Results

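The secreted Wnt ligands, their Frizzled receptors and 2 families of secreted Wnt antagonists, Sfrp and Dkk, were followed from the mouse oocyte to the implantation site. Members were taken by gene symbol: every gene of the platform annotation named Wnt, Fzd, Sfrp or Dkk followed by a number and at most a further digit or letter. This gave 37 of the 18193 genes measured, namely 19 Wnt ligands, 10 Frizzled receptors, 4 Sfrp and 4 Dkk genes. Their 73 probe sets, short oligonucleotide groups on the array that read 1 transcript together, were reduced to 1 per gene, the brightest by its log2 signal averaged over the 8 arrays, whatever the group in which it was bright. No member was left out by a filter on low values.

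RNA came from mature (MII) oocytes, from blastocysts and from samples labelled as embryos from implantation sites, each from a knockout (KO) of connexin 43 and from wild type (WT). Connexin 43, encoded by Gja1, is a gap junction protein, and the series asks how its loss from the oocyte bears on transcripts at these stages. The oocytes and the implantation sites had 1 array for each genotype, and the blastocysts had 2 for each. The title says that the depletion was directed to the oocyte. The driver, the strain, the age of the animals, the number of animals pooled and the genotype of the uterus at the implantation sites are not given in the sources used here, and neither is a relation between the arrays, so a p-value measures only the spread between these arrays, which may be technical.

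Wnt proteins are lipid-modified signals that bind Frizzled, a receptor that spans the membrane, together with an Lrp5 or Lrp6 co-receptor, which stabilises beta-catenin, or that act through other receptors on cell shape and polarity. Sfrp proteins carry a Frizzled-like domain and can bind Wnt proteins outside the cell, and Dkk proteins bind the Lrp co-receptors. In the mouse, Wnt signalling is known for its part in gastrulation, in the development of the uterus and in the response of the uterine lining to the implanting embryo.

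Promoter sequences were set beside these genes because members differed between stages in opposite directions. RefSeq promoters of GRCm38.p6 were matched for 25 of the 37 members (28 promoters), and the 250 bases before the transcription start are printed for 4 of them, chosen after their values were seen. Fzd1 (chr5:4758217-4758466, minus strand) was higher at implantation sites than in blastocysts. Dkk1 (chr19:30549497-30549746, minus strand), Fzd10 (chr5:128600856-128601105, plus strand) and Wnt3a (chr11:59290752-59291001, minus strand) were lower. Each is written 5′ to 3′ towards its gene, and capitals mark CTTTGA or its reverse complement TCAAAG, the core of the motif bound by TCF and LEF, the DNA-binding partners of beta-catenin.
Fzd1 promoter: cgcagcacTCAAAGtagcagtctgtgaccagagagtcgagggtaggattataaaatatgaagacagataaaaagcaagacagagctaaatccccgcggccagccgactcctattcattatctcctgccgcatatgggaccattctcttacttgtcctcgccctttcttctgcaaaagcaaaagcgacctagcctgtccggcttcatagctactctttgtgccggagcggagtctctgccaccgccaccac
Dkk1 promoter: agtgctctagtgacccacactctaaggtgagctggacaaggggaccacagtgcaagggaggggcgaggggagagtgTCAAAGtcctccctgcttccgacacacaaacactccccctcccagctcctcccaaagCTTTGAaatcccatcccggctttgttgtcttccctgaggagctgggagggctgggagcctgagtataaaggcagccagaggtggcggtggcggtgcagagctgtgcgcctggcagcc
Fzd10 promoter: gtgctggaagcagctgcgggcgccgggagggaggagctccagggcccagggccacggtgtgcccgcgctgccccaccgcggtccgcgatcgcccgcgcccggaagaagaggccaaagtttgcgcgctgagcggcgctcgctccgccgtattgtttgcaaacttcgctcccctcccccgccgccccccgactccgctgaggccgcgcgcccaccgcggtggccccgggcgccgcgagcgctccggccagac
Wnt3a promoter: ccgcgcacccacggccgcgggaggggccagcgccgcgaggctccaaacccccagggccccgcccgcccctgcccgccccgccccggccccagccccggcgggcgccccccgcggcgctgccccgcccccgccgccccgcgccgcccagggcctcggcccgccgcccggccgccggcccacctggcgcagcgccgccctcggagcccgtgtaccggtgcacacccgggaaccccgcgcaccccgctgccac
The Dkk1 sequence held the core at 174 and at 117 bases before the start, and the Fzd1 sequence held it at 242 bases. The Fzd10 and Wnt3a sequences held none in this window. On both strands, CTTTGA was found in promoters of 4 of the 25 matched members and in 13.8% of 32851 RefSeq mouse promoters of the same length. The half-site TGTTCT (reverse complement AGAACA) of the progesterone and glucocorticoid receptors was found for 3 matched members and in 16.1% of all promoters. Median GC content was 69.4% over the 28 member promoters, against 52.4% over all promoters, with 87.6% for Wnt3a, 76.4% for Fzd10, 60.8% for Dkk1 and 51.2% for Fzd1. A match to these letters is a description of sequence and not of binding.

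All arrays had been scaled to the same 2% trimmed mean (500), and the deposited table holds no detection calls. Signal from 15 probe sets for Bacillus genes, which match no mouse gene and are on each array, was therefore used as background: a member was taken as above background where it read higher than the brightest of them, 100.2 to 560 by array. In blastocysts this level was 395 and 560 in KO and 199 and 219 in WT, so it differed by genotype. The second brightest control read 195 and 253 in KO and 118 and 198 in WT, so each KO level rested on 1 probe set. The tissue labels were set against marker genes. The 12 stroma and decidua markers were all above background on both implantation site arrays, where their summed signal was 128728 in KO and 114181 in WT, against 2189 to 3632 in blastocysts. The 10 trophectoderm markers summed to 54242 to 67463 in blastocysts and to 5415 and 3675 at implantation sites, and the 12 inner cell mass markers to 38003 to 55853 in blastocysts and to 723 and 1323 at implantation sites, with Nanog and Tdgf1 below background there. The implantation site arrays, labelled as embryo, thus read strongly for uterine stroma and little for the defining genes of the blastocyst, and are called implantation sites here. In oocytes the oocyte markers summed to 74304 in KO and 108016 in WT, and the cumulus and granulosa markers to 3454 and 3072, within the range of the other arrays (1925 to 7328). Each stage was also an experiment of its own in the sample titles, so stage and experiment cannot be told apart. In whole samples, fewer cells of a type and less RNA per cell cannot be told apart either. The Gja1 probe set read 9835 on the first and 574 on the second WT blastocyst array, against 375 and 553 on the KO arrays. The library labelled WT replicate 2 thus did not read like the first WT array for this gene, and results that rest on it are given with and without it. In oocytes the probe set read 149.7 in KO and 126 in WT, below background on both arrays, and at implantation sites 28105 in KO and 44493 in WT, so it was bright on the KO array of that stage. No source used here says whether it lies in the deleted part, so it does not check the labels, and the directions between KO and WT follow the labels alone.

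**Figure D1:**
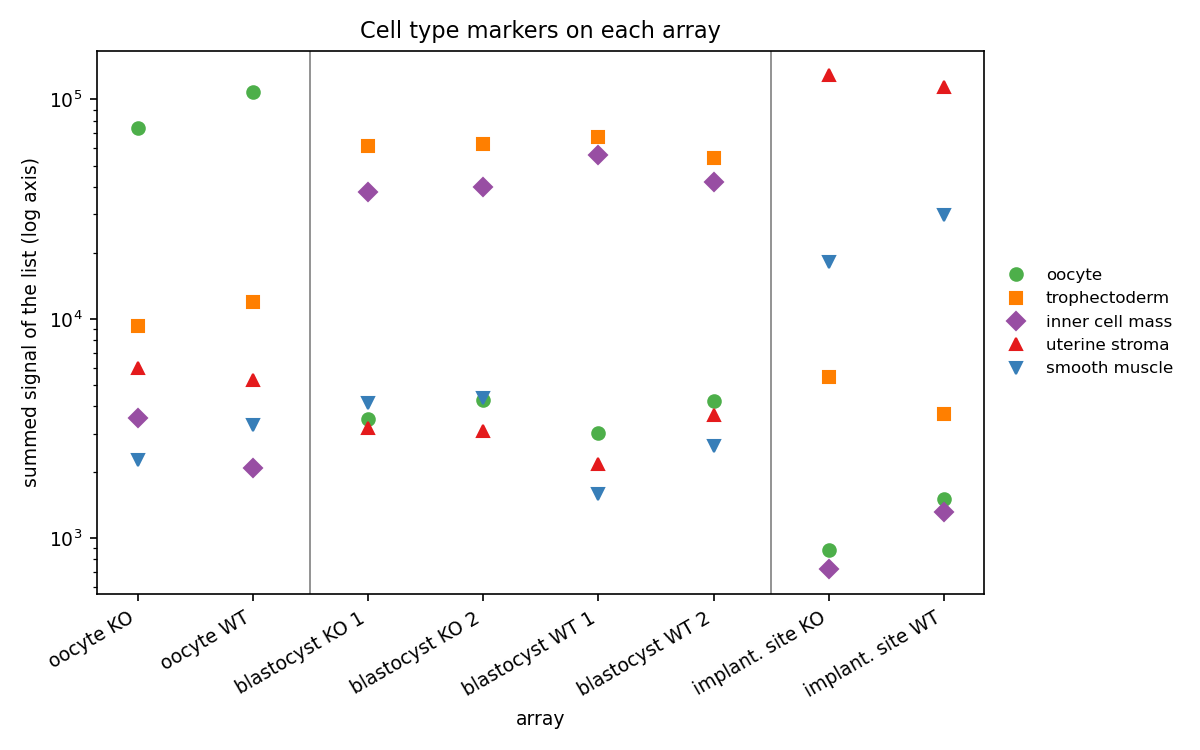
Summed signal (arbitrary units, log axis) of 5 marker lists (oocyte, trophectoderm, inner cell mass, uterine stroma, smooth muscle) on each of the 8 arrays, with KO and WT of each stage beside each other. The stroma and decidua list is at 128728 and 114181 at implantation sites and at 3632 or less in blastocysts, and the trophectoderm list does the reverse.

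Ligands, receptors and antagonists were each read at some stage, but not most of them everywhere. Of the 37 members, 12 (32.4%) were above background on both oocyte arrays, 8 (21.6%) on all 4 blastocyst arrays and 19 (51.4%) on both implantation site arrays, against 41.2%, 30.7% and 56% of all genes. At implantation sites these were 7 of 19 ligands, 6 of 10 receptors and 6 of 8 antagonists, and in blastocysts 3, 2 and 3. Fzd5 and Sfrp4 were above background on every array, though a second Fzd5 probe set was so on only 3. At the other end Wnt1, Wnt2, Wnt2b, Wnt3 and Wnt10b, all ligands, and the receptor Fzd9 were above background on none, with signals of 2.29 to 357. Of the 9 members not given array by array, Fzd9, Wnt1, Wnt2, Wnt2b and Wnt10b belong to that group, and Fzd6, Fzd8, Wnt8b and Wnt16 were above background on 2, 1, 4 and 3 arrays. The number of members above background per array ran from 12 on the oocyte KO and second blastocyst KO arrays, where the brightest control read 334 and 560, to 23 on the implantation site KO array, where it read 131.

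**Figure D2:**
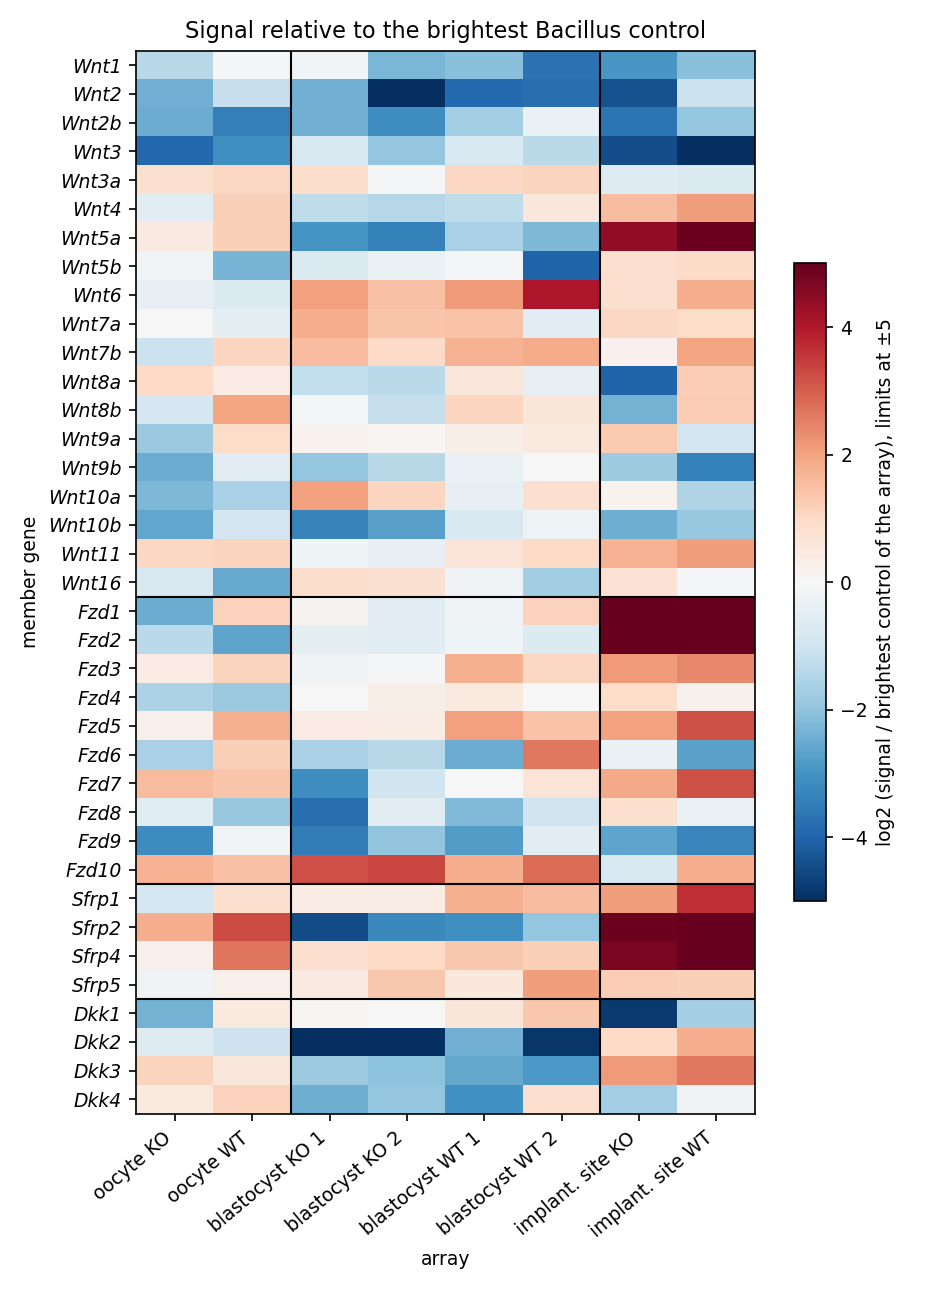
Signal of the 37 members (rows, by role) on the 8 arrays (columns), coloured by log2 of the ratio to the brightest Bacillus control of the same array. Fzd5 and Sfrp4 are above the control on every array, and 6 members on none.

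Implantation sites were first compared with blastocysts, the stage before attachment, with a limma fit over all 8 arrays that held stage and genotype as terms and adjusted p over all 18193 genes. At implantation sites 7 members were higher (18.9%, against 10.5% of all genes) and 8 were lower (21.6%, against 15.1%). The direction differed by role: 1 of 19 ligands was higher and 6 were lower, 2 of 10 receptors were higher and 1 lower, and 4 of 8 antagonists were higher and 1 lower. The median log2 difference was -1.87 over the ligands, 0.12 over the receptors and 1.48 over the antagonists. It was -0.49 over all genes and -0.74 over the dimmer of 2 equal parts of all genes. The ligands include 5 that were above background on no array, with Wnt3 among the 6 called lower. The difference between the roles was not tested. With the arrays quantile normalized, 7 members were higher and 6 lower, and with a common median 8 were higher and 6 lower, and under these scalings the all-gene median shifted by 0.27 and 0.36. The Bacillus controls were lower at implantation sites in 12 of 15 cases (median log2 -1.01), and their part in the lower members was not tested. For a member that was not above background on any array of the dimmer stage, the fold is given as a lower bound: the mean of the brighter stage over the control level of the dimmer stage, taken on each array as the brightest Bacillus control or the member's own signal, whichever was higher.

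Of the ligands, Wnt5a was called higher at implantation sites. Wnt5a (gene identifier 22418; chromosome 14, 28504543 to 28527448), a ligand best known for signalling that does not act through beta-catenin, read 451 and 301 in oocytes, 51.8 and 53.8 against 64.3 and 46.4 in blastocysts, and 2797 and 2966 at implantation sites, KO before WT in each stage. Both implantation site arrays stood far above all others, the oocyte arrays were next, and the blastocyst arrays were below background. The rise from blastocysts was at least 9.18-fold (log2 5.74, SE 0.66, adjusted p = 3.08e-05). Another Wnt5a probe set read 2836 and 4032 at implantation sites and 43.2 to 132 elsewhere, and a further one read 427 and 553 against at most 237 elsewhere. The remaining one, at 57.8 and 132, showed no such rise.

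Among the receptors Fzd1 and Fzd2 were higher. Fzd2 (gene identifier 57265; chromosome 11, 102604431 to 102608058) read 131 and 21.6 in oocytes, 283 and 374 against 169.8 and 138 in blastocysts, and 6839 and 5575 at implantation sites. The implantation site arrays were above every other array, and no oocyte or blastocyst array read above its own brightest control. The rise was at least 19.7-fold (log2 4.79, SE 0.60, adjusted p = 6.42e-05). The 2 other Fzd2 probe sets read 633 and 1002, and 536 and 1103, at implantation sites, with log2 differences from blastocysts of 1.79 and 2.60. The first of them was also above background in WT oocytes (186) and on the second WT blastocyst array (539). The second was so in KO oocytes (655). Fzd1 (gene identifier 14362; chromosome 5, 4753839 to 4758216) read 59.5 and 298 in oocytes, 435 and 376 against 178 and 489.5 in blastocysts, and 4624 and 4112 at implantation sites. Its implantation site arrays did not overlap with any other, and Fzd1 was higher than in blastocysts (log2 3.66, SE 0.63, adjusted p = 0.000844), where 2 of 4 arrays were below background. The second Fzd1 probe set did not follow, at 168 and 166 at implantation sites and 77.9 to 333 in blastocysts.

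Of the 7 members called higher, 4 were antagonists. Sfrp2 (gene identifier 20319; chromosome 3, 83765750 to 83774314), a secreted Frizzled-related protein, read 1169 and 1262 in oocytes, 17.6 and 60.5 against 24.1 and 58.0 in blastocysts, and 3867 and 3485 at implantation sites. It was bright in oocytes, below background on every blastocyst array and bright again at implantation sites, and KO and WT lay close to each other at both bright stages. The rise from blastocysts was at least 11.7-fold (log2 6.72, SE 0.70, adjusted p = 1.49e-05). Sfrp4 (gene identifier 20379; chromosome 13, 19623175 to 19632825), of the same family, read 400.4 and 854 in oocytes, 713 and 1114 against 501 and 505 in blastocysts, and 3457 and 4418 at implantation sites. It was above background throughout, and its implantation site arrays were 5.84-fold higher than its blastocyst arrays (log2 2.54, SE 0.45, adjusted p = 0.00106).

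Of the Dkk genes, Dkk2 and Dkk3 were higher. Dkk2, which can act on Lrp6 as an inhibitor or a weak activator, read 216 and 64.5 in oocytes, 10.4 and 7.91 against 38.0 and 7.55 in blastocysts, and 264 and 352 at implantation sites. It was above background at implantation sites and far below it in blastocysts (log2 4.62, SE 1.10, adjusted p = 0.00726), and no lower bound on the fold could be given. Without the implantation site KO array the adjusted p was 0.0561. Dkk3, the member of the family least tied to Lrp binding, read 717 and 195 in oocytes, 111 and 136 against 34.3 and 30.2 in blastocysts, and 572 and 622 at implantation sites. Its implantation site arrays did not overlap with blastocysts, the rise being at least 1.90-fold (log2 3.25, SE 0.80, adjusted p = 0.00905), and its other probe set read 929 and 1081 there. Without the implantation site WT array the adjusted p for Dkk3 was 0.146.

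**Figure D3:**
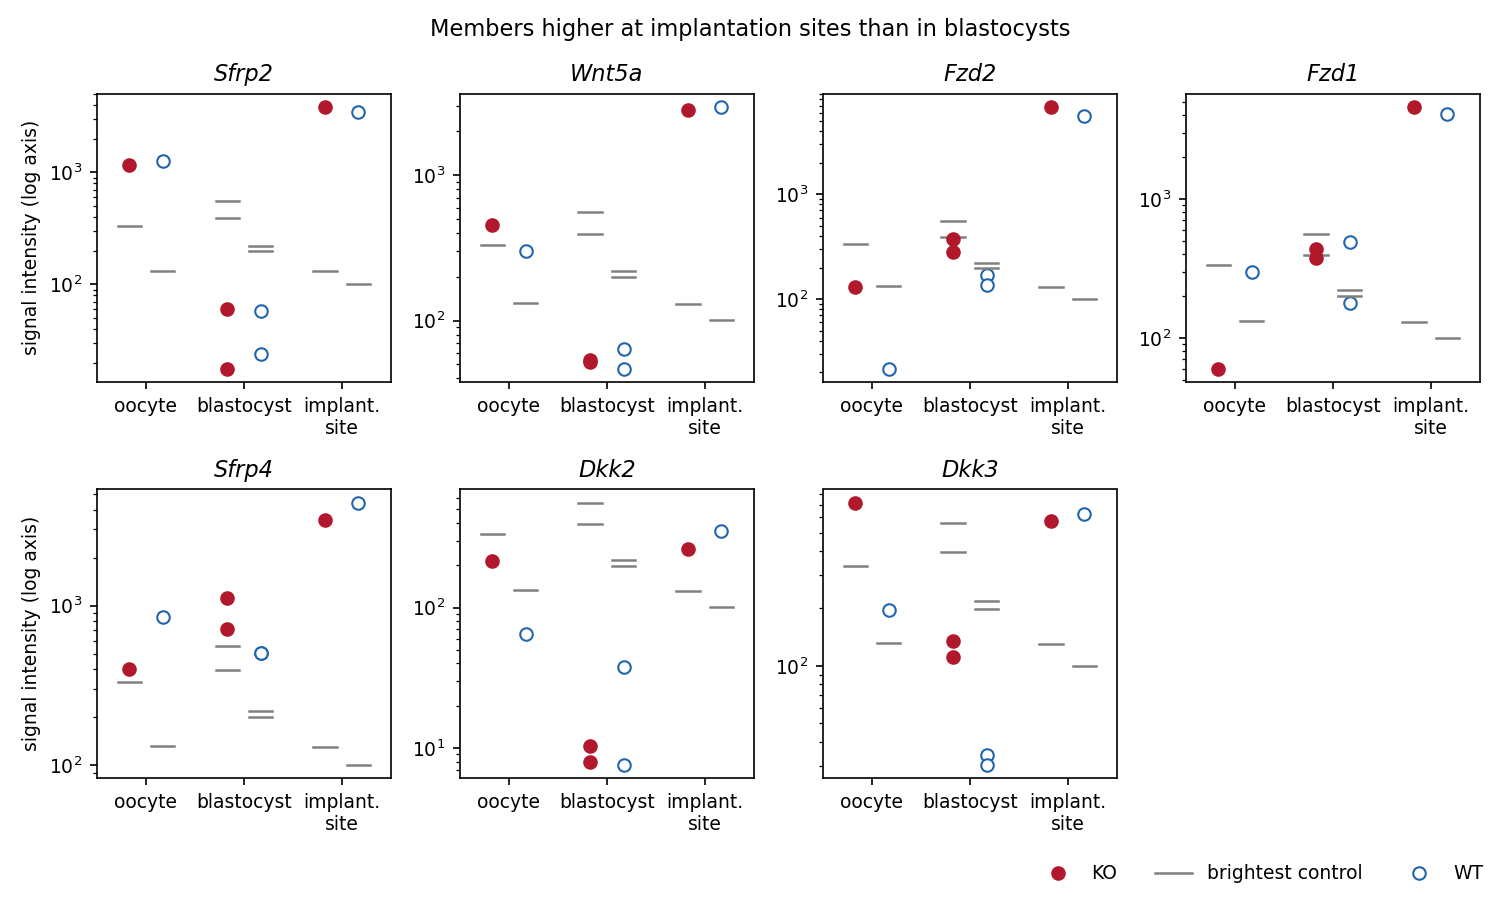
Signal (arbitrary units, log axis) on each array for the 7 members called higher at implantation sites than in blastocysts, with KO filled, WT open and a grey line at the brightest control of each array. The Sfrp2 points are at 3867 and 3485 at implantation sites and at 60.5 or less in blastocysts.

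The members lower at implantation sites than in blastocysts were mostly ligands. Wnt6, a ligand that signals through beta-catenin in several epithelia, read 248 and 82.7 in oocytes, 1651 and 1564 against 869 and 3582 in blastocysts, and 230.4 and 355 at implantation sites. All 4 blastocyst arrays were above both implantation site arrays, and the difference was 5.89-fold (log2 -2.56, SE 0.60, adjusted p = 0.00690). Without the implantation site KO array its adjusted p was 0.133, and over the mean of its 2 probe sets the difference was -0.29 (adjusted p = 0.793), and limma without the intensity trend gave an adjusted p of 0.0534. The second Wnt6 probe set was below background on every blastocyst array, at 9.75 to 112.

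Wnt3a, the ligand most used to activate beta-catenin signalling, read 586 and 272 in oocytes, 719 and 531 against 408 and 471 in blastocysts, and 83.6 and 60.2 at implantation sites. Implantation sites were below every other array, and the difference from blastocysts, where 3 of 4 arrays were above background, was at least 4.55-fold (log2 -2.88, SE 0.59, adjusted p = 0.00272). Wnt3, known for its part in the start of gastrulation, read 22.0 and 16.0 in oocytes, 225 and 145 against 119 and 87.3 in blastocysts, and 6.01 and 2.29 at implantation sites. Blastocysts were above the other stages without overlap (log2 -5.19, SE 0.97, adjusted p = 0.00144), but no array reached background, so no fold is given. Wnt7b read 157 and 279.8 in oocytes, 1140.2 and 1077 against 671 and 787 in blastocysts, and 152 and 396 at implantation sites. Its blastocyst arrays were the 4 highest, 3.65-fold above implantation sites (log2 -1.87, SE 0.55, adjusted p = 0.0233), with an adjusted p of 0.0785 without the first and 0.0757 without the second blastocyst KO array and 0.333 without the implantation site KO array. It was also not called with quantile normalization, a common median or no intensity trend (adjusted p = 0.0590, 0.0619 and 0.0643) or over the mean of its probe sets (adjusted p = 0.198).

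Wnt10a read 70.6 and 43.0 in oocytes, 1623 and 1189 against 149 and 385 in blastocysts, and 149.8 and 35.8 at implantation sites. The lowest blastocyst array, a WT array, was level with the implantation site KO array, and the implantation site WT array was below background, so the stages overlapped and no fold is given (log2 -2.98, SE 0.79, adjusted p = 0.0134). The adjusted p was 0.0682 and 0.0531 without either blastocyst KO array and 0.0925 without the implantation site KO array. Wnt9b, a ligand best known from kidney and reproductive tract development, read 59.4 and 91.7 in oocytes, 102 and 213 against 159 and 221 in blastocysts, and 37.8 and 9.65 at implantation sites. It was above background on 1 of 4 blastocyst arrays. The difference was at least 1.45-fold (log2 -3.12, SE 1.01, adjusted p = 0.0352), and it was not called without any 1 of the 4 blastocyst arrays (adjusted p = 0.0526 to 0.0962) or without the implantation site WT array (adjusted p = 0.263). Quantile normalization, a common median and the mean of its probe sets ended the call as well (adjusted p = 0.0980, 0.0560 and 0.100).

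A receptor and an antagonist were lower as well. Fzd10 (gene identifier 93897; chromosome 5, 128601106 to 128604093) read 1103 and 365 in oocytes, 3651 and 5699 against 699 and 1540.2 in blastocysts, and 76.7 and 353 at implantation sites. All blastocyst arrays were above all implantation site arrays (log2 -3.72, SE 0.73, adjusted p = 0.00209), but the implantation site KO array was below background, so no fold is given. Without the implantation site KO array the log2 difference was -1.64 (adjusted p = 0.0799), and a second Fzd10 probe set was below background on all 8 arrays. Dkk1 (gene identifier 13380; chromosome 19, 30545876 to 30549496), an inhibitor of Lrp5 and Lrp6 that is itself switched on by beta-catenin in many tissues, read 64.7 and 186 in oocytes, 418 and 555 against 304 and 557 in blastocysts, and 4.72 and 32.0 at implantation sites. Blastocysts, with 3 of 4 arrays above background, were above implantation sites on every array, by at least 3.89-fold (log2 -5.18, SE 0.94, adjusted p = 0.00122). The sequence printed for its promoter held the TCF and LEF core at 2 places, and those of Wnt3a and Fzd10 held none. That of Fzd1, which was higher at implantation sites, held the core too, as did 13.8% of all promoters. The part of the core in these values was not tested.

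**Figure D4:**
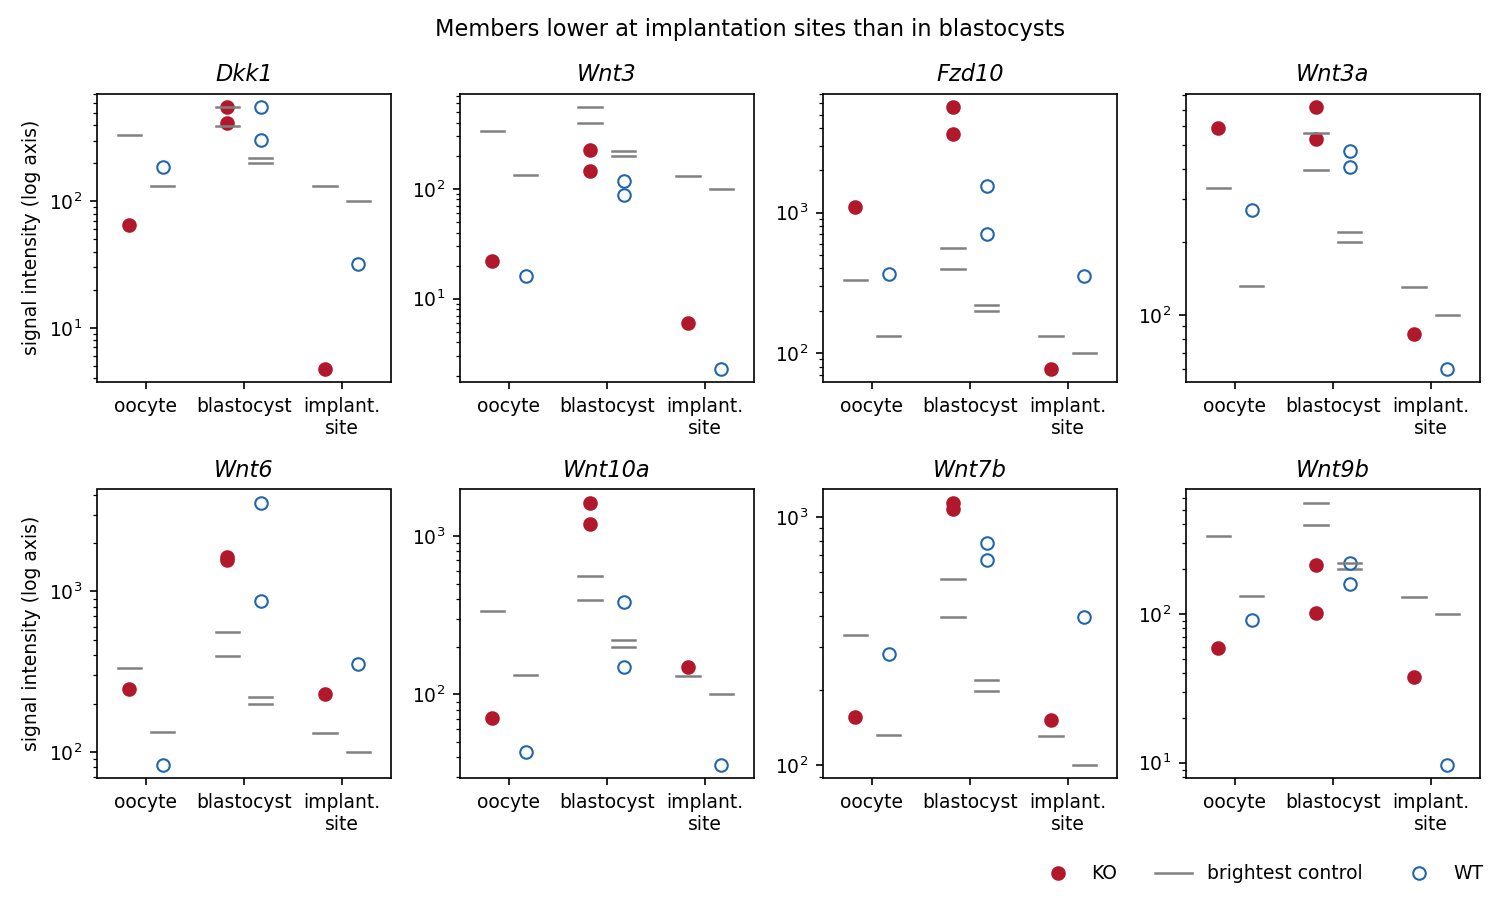
Signal (arbitrary units, log axis) on each array for the 8 members called lower at implantation sites than in blastocysts, with KO filled, WT open and a grey line at the brightest control of each array. Fzd10 spans 699 to 5699 in blastocysts and 76.7 to 353 at implantation sites.

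Dkk1, Fzd1, Fzd2, Sfrp2, Sfrp4, Wnt3, Wnt3a and Wnt5a were called in this comparison under every alternative that could be run for them. Wnt3, though, was above background on no array, so its difference lies within background signal. Over those alternatives the log2 difference ranged over 5.60 to 7.08 for Sfrp2, 3.82 to 6.10 for Wnt5a, 3.06 to 5.44 for Fzd2, 1.78 to 4.02 for Fzd1 and 2.28 to 2.90 for Sfrp4. It ranged over -6.38 to -3.13 for Dkk1, -2.99 to -2.35 for Wnt3a and -5.53 to -2.04 for Wnt3. Without the library labelled blastocyst WT replicate 2, 15 members were called, against 15 with it. Fzd6 was not called, yet its probe sets disagreed: the representing one read 104 and 15.7 at implantation sites, and another read 1305 and 1211 there against 12.5 to 85.7 in blastocysts.

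Blastocysts were then compared with oocytes in the same fit. In blastocysts 8 members were higher (21.6%, against 16.9% of all genes) and 4 were lower (10.8%, against 13.1%). These were 5 ligands, 2 receptors and 1 antagonist higher, and 1 ligand and 3 antagonists lower, with a median log2 difference of 0.51 over the members beside 0.18 over all genes. The Bacillus controls were lower in blastocysts in 11 of 15 cases (median log2 -0.60).

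Wnt6, with the values given above, was at least 8.01-fold higher in blastocysts than in oocytes (log2 3.56, SE 0.60, adjusted p = 0.000352), and all 4 blastocyst arrays were above both oocyte arrays. Over the mean of its 2 probe sets the difference was 0.93 (adjusted p = 0.393), since the second one differed by -1.69. Wnt10a was at least 2.74-fold higher (log2 3.39, SE 0.79, adjusted p = 0.00411), again without overlap and with 3 of 4 blastocyst arrays above background, with an adjusted p of 0.0689 without the oocyte KO array. Wnt7b was higher in blastocysts on every array (log2 2.10, SE 0.55, adjusted p = 0.00918), with an adjusted p of 0.0987 without the oocyte KO array and 0.129 over the mean of its probe sets. Wnt7a, a ligand of the female reproductive tract and its epithelium, read 328 and 98.1 in oocytes, 1393 and 1448 against 531 and 153 in blastocysts, and 266 and 190.1 at implantation sites. The second WT blastocyst array lay between the oocyte arrays and below background, so the stages overlapped, and the rise of at least 3.03-fold (log2 1.83, SE 0.65, adjusted p = 0.0463) was not called without any 1 of 5 arrays, among them the oocyte KO array (adjusted p = 0.164) and the oocyte WT array (adjusted p = 0.182). Nor was it called with quantile normalization, a common median or no intensity trend (adjusted p = 0.0620, 0.0634 and 0.0938) or over the mean of its probe sets (adjusted p = 0.423).

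Wnt3 was higher in blastocysts without overlap (log2 2.85, SE 0.97, adjusted p = 0.0375) but below background at both stages, and it was not called without any 1 of 6 arrays (adjusted p = 0.0618 to 0.182) or with a common median (adjusted p = 0.0551). Among receptors, Fzd2 was higher (log2 2.07, SE 0.60, adjusted p = 0.0159) with every array of both stages below background, and its adjusted p was 0.208 without the oocyte WT array and 0.182 over the mean of its probe sets. Fzd4, the receptor for Norrin as well as for Wnt ligands, read 112 and 36.5 in oocytes, 406 and 690.0 against 278 and 217 in blastocysts, and 246 and 117 at implantation sites. All blastocyst arrays were above both oocyte arrays and 3 of 4 were above background, by at least 1.71-fold (log2 2.49, SE 0.72, adjusted p = 0.0169). The adjusted p was 0.0981 without the oocyte WT array and 0.0757 without the second blastocyst KO array, and the mean of its probe sets gave a log2 difference of 0.02 (adjusted p = 0.991). Another Fzd4 probe set went the other way (log2 -1.90). It read 490 and 157 in oocytes, above background, and 61.4 to 105 in blastocysts, below it. Sfrp1 was the antagonist that was higher, at 183 and 229 in oocytes, 515 and 725 against 675 and 637 in blastocysts, and 559 and 1272 at implantation sites. Blastocysts did not overlap with oocytes (log2 1.63, SE 0.47, adjusted p = 0.0171), and the adjusted p was 0.0552 without the oocyte KO array, 0.0969 without the oocyte WT array and 0.0620 without the second blastocyst KO array. Over the mean of its probe sets the difference was 0.77 (adjusted p = 0.433).

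Sfrp2 was at least 3.87-fold lower in blastocysts than in oocytes (log2 -5.12, SE 0.70, adjusted p = 5.49e-05), and the only 1 of the 12 called under every alternative run. Wnt5a was at least 1.18-fold lower (log2 -2.78, SE 0.66, adjusted p = 0.00454), with an adjusted p of 0.0622 without the oocyte KO array and 0.425 over the mean of its probe sets. Its second probe set, below background in both stages, differed by 0.34 on the log2 scale. Dkk3 was at least 1.19-fold lower (log2 -2.57, SE 0.80, adjusted p = 0.0245), with 0.184 and 0.0920 as the adjusted p without the oocyte KO or WT array. Dkk2 was lower as well (log2 -3.25, SE 1.10, adjusted p = 0.0370), with every array of both stages below background, and without the oocyte KO array its adjusted p was 0.353. It was also not called without either blastocyst KO array or the second WT array (adjusted p = 0.0845 to 0.0980) or with a pseudocount (adjusted p = 0.0506). Without the library labelled blastocyst WT replicate 2, 11 members were called, against 12 with it, and 4, 7 and 7 were called without the oocyte KO, the oocyte WT or the second blastocyst KO array.

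Between implantation sites and oocytes 5 members were higher (13.5%, against 13.2% of all genes) and 2 were lower (5.41%, against 12.2%) at implantation sites. The median log2 difference was 0.31 over the members and -0.38 over all genes, and the controls were lower in 13 of 15 cases (median log2 -1.55). The share of members higher was close to that of all genes. Fzd2 was at least 29.4-fold higher (log2 6.86, SE 0.69, adjusted p = 8.49e-06), Fzd1 was higher on both arrays (log2 5.03, SE 0.73, adjusted p = 0.000154), and so was Sfrp4 (log2 2.74, SE 0.52, adjusted p = 0.00137). These 3 were called under every alternative that could be run. The bound for Fzd2 holds for its representing probe set only. Its 2 other probe sets differed by a log2 of 2.86 and 3.06. The latter read 655 in KO oocytes, above background, and 536 on the implantation site KO array.

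Wnt5a was higher too (log2 2.97, SE 0.76, adjusted p = 0.00959), with an adjusted p of 0.0766, 0.0819 and 0.0844 without the oocyte WT, implantation site KO or implantation site WT array. Sfrp1 was higher (log2 2.04, SE 0.55, adjusted p = 0.0129), with 0.0565 and 0.134 without the oocyte or the implantation site WT array. Over the mean of its probe sets the Sfrp1 difference was 0.42 (adjusted p = 0.717). Sfrp2 did not pass here (log2 1.60, SE 0.81, adjusted p = 0.172), though both its implantation site arrays were above both its oocyte arrays. Wnt3a was at least 3.48-fold lower at implantation sites (log2 -2.49, SE 0.68, adjusted p = 0.0140), with 0.100 and 0.0598 without the oocyte or the implantation site KO array. Dkk1 was lower (log2 -3.16, SE 1.09, adjusted p = 0.0469), and leaving out any 1 of 6 arrays ended that call (adjusted p = 0.0688 to 0.270), as did quantile normalization, a pseudocount, the mean of its probe sets and the use of probe sets without a suffix (adjusted p = 0.138, 0.161, 0.318 and 0.0510). Without the library labelled blastocyst WT replicate 2, 6 members were called, against 7 with it, and 4 were called without either the oocyte WT or the implantation site KO array.

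The remaining 10 of the 28 members given array by array were above background on both arrays of an unreplicated stage or on most blastocyst arrays and were called in no stage comparison. Among the ligands, Wnt4, which acts in decidualization and in the female reproductive tract, read 223 and 306 in oocytes, 166 and 210.5 against 83.2 and 323 in blastocysts, and 385 and 432 at implantation sites. The implantation site arrays were the 2 highest. Its other probe set read 485 and 531 at implantation sites and 99.1 and 38.8 in oocytes, but in blastocysts it read 41.8 and 108 in KO and 101 and 533 in WT, the last above both implantation site arrays. Wnt11, a ligand of cell movement in the early embryo, read 679.6 and 289.8 in oocytes, 336 and 424 against 314 and 433 in blastocysts, and 438 and 429.6 at implantation sites. These values overlapped between all stages.

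Wnt5b read 308 and 26.6 in oocytes, 242 and 445 against 186 and 13.8 in blastocysts, and 226 and 193 at implantation sites. Its 4 WT arrays were all below its 4 KO arrays, but on the oocyte and blastocyst arrays it was below background. Its other probe set, below background on all 8 arrays, separated the other way, with at most 73.2 on KO and 81.7 to 186 on WT arrays, so the probe sets disagreed on the direction. Wnt8a read 663 and 178 in oocytes, 168 and 221 against 297 and 163 in blastocysts, and 8.17 and 232 at implantation sites, with its lowest value on the implantation site KO array. Wnt9a read 92.3 and 253 in oocytes, 443 and 598 against 245 and 312 in blastocysts, and 323 and 51.6 at implantation sites, with its lowest value on the implantation site WT array.

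Among the receptors Fzd5, known for its part in the yolk sac and placenta, read 399 and 449.5 in oocytes, 518 and 718 against 828 and 588 in blastocysts, and 525 and 902 at implantation sites. It was above background on every array, and its oocyte arrays were the 2 lowest. Its other probe set disagreed: it was above background on 3 blastocyst arrays only, at 794 to 1014. It read 66.4 and 28.6 in oocytes and 66.2 and 51.8 at implantation sites. Fzd3, a receptor of the polarity pathway, read 439 and 287 in oocytes, 353 and 535 against 683 and 451 in blastocysts, and 577 and 528 at implantation sites. Its blastocyst arrays overlapped with both other stages. The other Fzd3 probe sets disagreed. For 1 of them, at 438 and 420 at implantation sites and below background in blastocysts, the log2 difference between these stages was 2.24. For another, below background at implantation sites, it was -4.65, and for the rest -0.14, -1.49 and -2.37. Fzd7, a receptor of embryonic stem cells, read 998 and 351 in oocytes, 46.2 and 280.0 against 200.5 and 355 in blastocysts, and 489 and 900.0 at implantation sites. Its blastocyst arrays were all below the oocyte KO array and both implantation site arrays. Its other probe set did not follow, at 21.6 and 32.4 at implantation sites and 24.9 to 250 in blastocysts, all below background.

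Among the antagonists Sfrp5 read 292 and 158 in oocytes, 533 and 1443 against 290.3 and 941 in blastocysts, and 309.8 and 231 at implantation sites, and Dkk4 read 471 and 296 in oocytes, 72.5 and 147 against 24.7 and 395 in blastocysts, and 40.8 and 89.0 at implantation sites. For both, the blastocyst arrays differed among themselves within each genotype, Sfrp5 from 290.3 to 941 and Dkk4 from 24.7 to 395 within WT.

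The genotypes were compared in blastocysts, the stage with 2 arrays each, with limma on those 4 arrays. No member was called, beside 17 of 18193 genes higher in KO (0.0934%) and none lower (0%). At an unadjusted p under 0.05, 5 members were higher (13.5%, against 7.98% of all genes) and none lower (0%, against 5.05%), and limma without its intensity trend called no member either. The 5 were the receptor Fzd10 and the ligands Wnt1, Wnt7a, Wnt10a and Wnt16, none of which passed the adjusted threshold. Both KO arrays were above both WT arrays for 15 of 37 members (40.5%, against 24.9% of all genes), and below for 1 (2.7%, against 20.5%). The median log2 difference, KO minus WT, was 0.23 over the members, 0.09 over all genes and 0.38 over the dimmer of 2 equal parts of all genes. With quantile normalization it was 0.04 over the members and with a common median -0.03, while under these scalings the all-gene median shifted by -0.14 and -0.25. Of the 15 Bacillus controls 11 were higher in KO (median log2 0.38), and the ratio of 3′ to 5′ signal of Actb was 25.7 and 39.0 in KO against 69.3 and 69.1 in WT. The summed signal of the 9 leukocyte and blood markers was 10013 and 13872 in KO and 2207 and 5256 in WT. Csf1r (6134 and 11937 against 593 and 3881) and Adgre1 made up most of it, and 6 of the 9 markers were higher and 3 (Cd68, Itgam and Gzma) lower in KO. The part of these differences in the members' values was not tested.

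Fzd10 read 3651 and 5699 in KO and 699 and 1540 in WT blastocysts. Both KO arrays were above both WT arrays, all 4 were above background, and the log2 difference was 2.14 (SE 0.42, adjusted p = 0.114), or 4.40-fold. Without the library labelled WT replicate 2 it was 2.71 (adjusted p = 0.0201), and without WT replicate 1 it was 1.57 (adjusted p = 0.228). Wnt10a read 1623 and 1189 in KO and 149 and 385 in WT. Its log2 difference was 2.54 (SE 0.54, adjusted p = 0.143), 3.22 without WT replicate 2 (adjusted p = 0.0265) and 1.85 without WT replicate 1 (adjusted p = 0.228). The calls of Fzd10 and Wnt10a thus depended on whether WT replicate 2 was used.

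Wnt7a read 1393 and 1448 in KO and 531 and 153 in WT (log2 2.32, SE 0.58, adjusted p = 0.192), and 1.42 was its difference without WT replicate 2 (adjusted p = 0.118). The KO arrays were close to each other and the WT arrays were not. The mean of its probe sets gave 0.65. Wnt16, a ligand known from bone and blood stem cell development, read 735 and 955 in KO and 178 and 66.1 in WT. Both WT arrays were below background, so KO was at least 4.00-fold higher (log2 2.95, SE 0.69, adjusted p = 0.167), and without WT replicate 2 the log2 difference was 2.24 (adjusted p = 0.0909). Wnt1 (log2 2.86, SE 1.13, adjusted p = 0.332, and 2.12 without WT replicate 2) was below background on all 4 arrays. Members that were bright in blastocysts did not all share this: Wnt6 read 1651 and 1564 in KO and 869 and 3582 in WT, and Dkk1 read 418 and 555 in KO and 304 and 557 in WT.

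**Figure D5:**
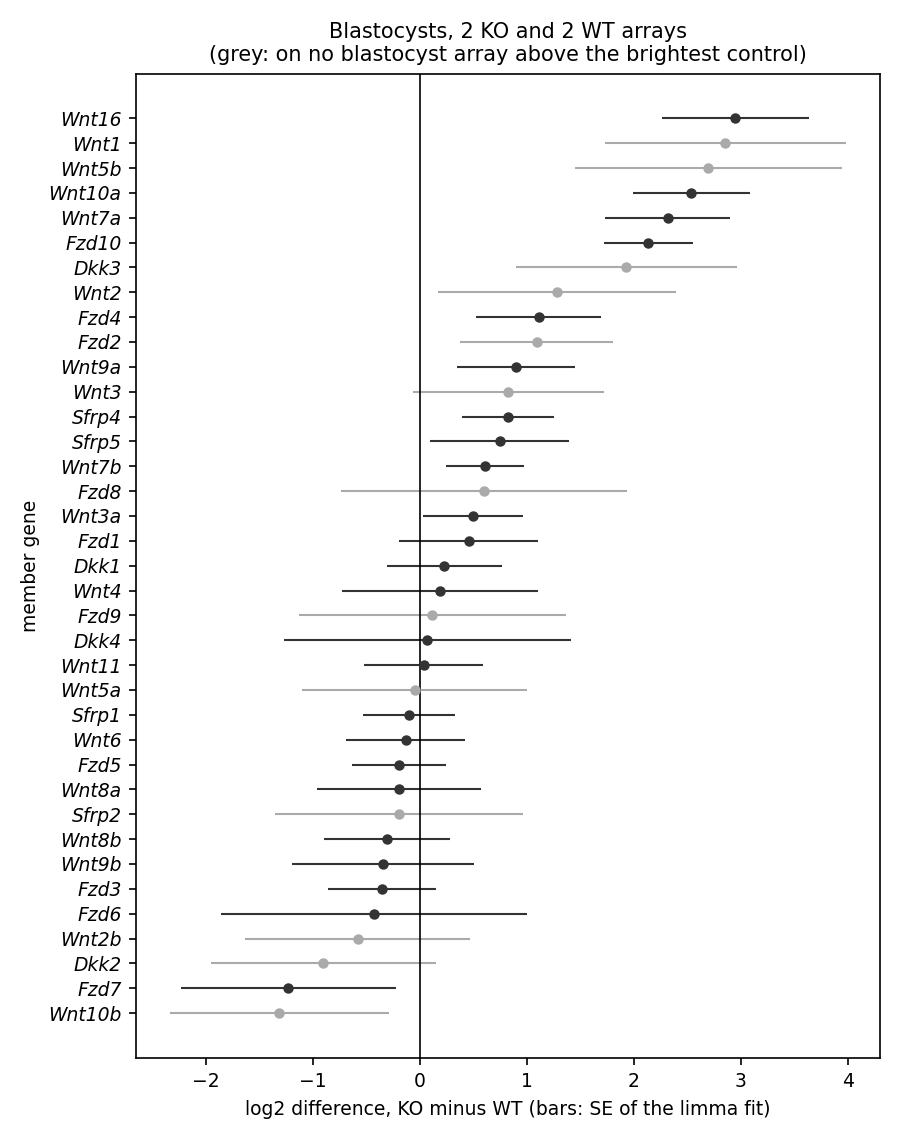
Log2 difference, KO minus WT, in blastocysts for the 37 members, with bars of 1 SE from the limma fit, in order of size, and in grey where no blastocyst array was above the brightest control. Fzd10, Wnt10a, Wnt16, Wnt7a, Wnt1 and Wnt5b (2.70) lie between 2.14 and 2.95, and no member has an adjusted p under 0.05.

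A KO difference shared by the 3 stages was tested over all 8 arrays. No member and no gene was called (0% in each direction, against 0%), also under every alternative run. At an unadjusted p under 0.05, 6 members were higher in KO (16.2%, against 3.97% of all genes) and none lower (0%, against 2.37%). These were Wnt16 (log2 2.53, SE 0.67, adjusted p = 0.777), Wnt10a (log2 1.96, SE 0.64, adjusted p = 0.777), Wnt7a (log2 1.71, SE 0.53, adjusted p = 0.777), Wnt5b (log2 2.29, SE 0.91, adjusted p = 0.777), Fzd2 (log2 1.27, SE 0.49, adjusted p = 0.777) and Dkk3 (log2 1.40, SE 0.65, adjusted p = 0.777). Wnt16 was higher in KO at each stage, at 191 against 23.4 in oocytes and 218 against 95.2 at implantation sites. Both of its oocyte arrays and its WT array at implantation sites were below background, however. Fzd2 and Wnt5b were below background on all oocyte and blastocyst arrays. At implantation sites, where they were above it, their log2 differences, KO minus WT, were 0.29 and 0.22. Dkk3 was below background on all blastocyst arrays, and its log2 difference at implantation sites was -0.12 (572 in KO and 622 in WT). In oocytes, with 1 array per genotype, Dkk3 read 717 in KO and 195 in WT. Another Fzd2 probe set was lower in KO at each stage (log2 -1.52, -0.27 and -0.66). The remaining Fzd2 probe set was higher in KO oocytes (log2 5.65) and lower in KO blastocysts and implantation sites (log2 -0.09 and -1.04). This comparison contains the blastocyst arrays of the one before, so the values for Wnt7a, Wnt10a and Wnt16 are not a separate reading. The median log2 difference was 0.10 over the members, and -0.18 and -0.06 with the 2 other scalings.

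In oocytes, with 1 array per genotype, no difference has a replicate check, and only sizes are given. KO was at least 2-fold higher than WT for 15 members (40.5%, against 33.8% of all genes) and at least 2-fold lower for 7 (18.9%, against 12.3%). With quantile normalization these counts were 9 and 13, and with a common median 12 and 10. All 15 Bacillus controls were higher on the KO array (median log2 1.70), where the 3′ to 5′ ratio of Actb was 6.68 against 33.4 in WT and that of Gapdh 2.41 against 10.1. Many of the 15 members were below background on both arrays, and among those at least 2-fold apart the brighter array was above background for 6 higher and 6 lower.

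The 6 higher in KO were Dkk3 (717 in KO and 195 in WT, log2 1.88), Wnt8a (663 in KO and 178 in WT, log2 1.90), Fzd10 (1103 in KO and 365 in WT, log2 1.60), Fzd7 (998 in KO and 351 in WT, log2 1.51), Wnt11 (679.6 in KO and 289.8 in WT, log2 1.23) and Wnt3a (586 in KO and 272 in WT, log2 1.11). They hold ligands, receptors and an antagonist. The 6 lower in KO were Sfrp4 (400.4 in KO and 854 in WT, log2 -1.09), Fzd1 (59.5 in KO and 298 in WT, log2 -2.32), Dkk1 (64.7 in KO and 186 in WT, log2 -1.53), Fzd6 (109.6 in KO and 301 in WT, log2 -1.46), Wnt8b (185 in KO and 518 in WT, log2 -1.48) and Wnt9a (92.3 in KO and 253 in WT, log2 -1.45). For these except Sfrp4 the KO array was below its background level of 334, and Wnt8b was at least 1.55-fold lower by the bound. The mean of all probe sets turned the difference to 0.028 for Dkk1 and to 0.47 for Wnt9a. Sfrp2 differed by less than 2-fold between the oocyte arrays.

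At implantation sites, again with 1 array per genotype, 9 members were at least 2-fold higher in KO (24.3%, against 10.3% of all genes) and 9 at least 2-fold lower (24.3%, against 24%). The counts were 9 and 6 with quantile normalization and 9 and 5 with a common median. Of the controls 10 of 15 were lower in KO (median log2 -0.39). The smooth muscle markers summed to 18236 in KO and 29592 in WT, and those of primitive and visceral endoderm to 40230 and 25525. All 6 smooth muscle markers were lower in KO, whereas the endoderm sum was mostly Pdgfra, Ttr and Sox17, and Gata6 read 38.8 in KO and 297 in WT. The part of these markers in the members' values was not tested. Sfrp2, Sfrp4, Wnt5a, Fzd1, Fzd2, Dkk2 and Dkk3, the members called higher at implantation sites than in blastocysts, all differed by less than 2-fold between KO and WT there.

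With the brighter array above background, 5 members were at least 2-fold higher in KO: Wnt9a (323 in KO and 51.6 in WT, log2 2.65, at least 3.23-fold by the bound), Wnt10a (149.8 in KO and 35.8 in WT, log2 2.07, at least 1.49-fold), Fzd8 (226 in KO and 76.9 in WT, log2 1.56, at least 2.26-fold), Wnt16 (218 in KO and 95.2 in WT, log2 1.19, at least 2.18-fold) and Fzd4 (246 in KO and 117 in WT, log2 1.07). They were 3 ligands and 2 receptors. Another 5 were at least 2-fold lower in KO: Wnt8a (8.17 in KO and 232 in WT, log2 -4.83, at least 1.77-fold), Wnt8b (25.3 in KO and 242 in WT, log2 -3.25, at least 1.84-fold), Fzd10 (76.7 in KO and 353 in WT, log2 -2.20, at least 2.70-fold), Wnt7b (152 in KO and 396 in WT, log2 -1.38) and Sfrp1 (559 in KO and 1272 in WT, log2 -1.19). With the mean of all probe sets the difference turned to 0.49 for Sfrp1 and to 0.36 for Wnt7b.

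The rest of the pathway was read from a list of 86 further genes, 84 of them measured, which covers secretion, other antagonists and receptors, R-spondins, and the cytoplasmic and nuclear parts. No such gene was called between KO and WT, in blastocysts or over the stages. From blastocyst to implantation site 18 were higher (21.4%, against 10.5% of all genes) and 9 lower (10.7%, against 15.1%), with a median log2 difference of 0.13, beside -0.49 over all genes. From oocyte to blastocyst 7 were higher (8.33%, against 16.9%) and 24 lower (28.6%, against 13.1%), with a median of -0.41, beside 0.18.

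Of 6 genes of Wnt secretion and release, 2 were higher at implantation sites than in blastocysts (33.3%, against 10.5% of all genes) and none lower (0%, against 15.1%). The 2 were Wls, the carrier of Wnt proteins to the cell surface (log2 3.47, adjusted p = 0.000186), and the glypican Gpc4 (log2 2.49, adjusted p = 0.00115). Of 8 further secreted antagonists 1 was higher (12.5%, against 10.5%) and 2 were lower (25%, against 15.1%). Igfbp4 was higher (log2 7.06, adjusted p = 3.86e-07), at 18642 in KO and 14251 in WT against 98.8 to 177 in blastocysts. Sost (adjusted p = 0.0335) and Sostdc1 (adjusted p = 0.0371) were lower. Sost was above background on 1 of these 6 arrays and Sostdc1 on none, so no size is given. Of 14 co-receptors and other receptors 2 were higher (14.3%, against 10.5%) and 3 were lower (21.4%, against 15.1%). Ryk (log2 1.79, adjusted p = 0.0318) and Vangl2 (log2 1.96, adjusted p = 0.0306) were higher. The Wnt co-receptor Lrp6 (log2 -1.78, adjusted p = 0.0445, named after its values were seen) and the polarity genes Vangl1 and Celsr3 were lower. Vangl1 differed by a log2 of -3.02, adjusted p = 0.00362 and Celsr3 by -3.67, adjusted p = 0.00222. Of 9 R-spondins, Lgr receptors and their ligases 1 was higher, Lgr4 (11.1%, against 10.5%), and 1 lower, Rnf43 (11.1%, against 15.1%). Rnf43 was below background on every array, so no size is given. Of 30 cytoplasmic genes 10 were higher (33.3%, against 10.5%) and 2 were lower (6.67%, against 15.1%). Among those higher were Prickle1 (log2 3.69, adjusted p = 1.50e-05) and the tankyrase Tnks2 (log2 2.41, adjusted p = 0.000215). Of 17 measured nuclear genes 2 were higher (11.8%, against 10.5% of all genes) and 1 lower (5.88%, against 15.1%), with a median log2 difference of 0.06. Lef1, a nuclear partner of beta-catenin, was 1 of those higher (log2 2.65, adjusted p = 0.000841), while Tcf7l1 and Tcf7l2 were not called.

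Of 19 measured genes listed as targets of beta-catenin, 4 were higher (21.1%, against 10.5% of all genes) and 5 lower (26.3%, against 15.1%) at implantation sites than in blastocysts, among them Apcdd1, itself an inhibitor of the pathway (log2 4.95, adjusted p = 6.28e-07), and the homeobox gene Msx2 (log2 -3.23, adjusted p = 0.00419). The target list holds Dkk1 and shares 7 genes with the pathway lists, so its counts are not separate from those above. From oocyte to blastocyst, Wls (log2 -2.49, adjusted p = 0.00116), Ryk (log2 -3.04, adjusted p = 0.000747) and Prickle1 (log2 -6.05, adjusted p = 8.44e-08) were lower, the opposite direction to their difference between blastocyst and implantation site, while the corepressor Tle4 was higher (log2 7.32, adjusted p = 7.87e-08). The blastocyst arrays are shared by these comparisons. From oocyte to implantation site 14 pathway genes were higher (16.7%, against 13.2%) and 12 lower (14.3%, against 12.2%), with a median log2 difference of -0.28, beside -0.38 over all genes.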

How the data were processed

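Polyadenylated RNA of 8 mouse samples was read on Affymetrix arrays. The authors deposited 1 table of signal intensity, made with MAS5 per the submitters' processing notes (version not given in the sources used here), on a linear scale with a 2% trimmed mean of 500 on every array. Background was read from 15 Bacillus control probe sets, which assumes that no Bacillus RNA was added.

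Of 45101 probe sets, 34945 named a single gene in the platform table, whose symbols were brought up to date with RefSeq genes of GRCm38.p6, giving 18193 genes. Probe sets with several genes (932), none (9160) or control names (64) were left out. The brightest probe set by mean log2 signal represented each gene, and no dim gene was filtered out.

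Log2 signal was tested in limma (3.58.1, under R 4.3.3), using lmFit and an eBayes step with trend. Tests were two-sided and called at an adjusted p under 0.05 (Benjamini-Hochberg, over all genes). Genotype was fitted on the 4 blastocyst arrays, and stage and genotype together on all 8. Pairs of single arrays were described by 2-fold counts. The number of arrays limits the precision. Members, gene lists and tests were chosen with earlier results of these data known. Named with all values were members above background on both arrays of an unreplicated stage or on at least 3 of 4 blastocyst arrays, and those called in any comparison. Members 2-fold apart between KO and WT in an unreplicated stage, with the brighter array above background, were named with both values. At most 4 genes were named per other list, except that more were named of the co-receptor and the leukocyte lists.

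The alternatives comprised a pseudocount of 38.7, 2 other scalings (quantile, common median), only the upper 50% or 30% of probe sets by signal, probe sets averaged per gene, probe sets without suffix, no trend, the replicate number as a block, 1 mean per stage and genotype, other control levels and leaving out each array. The fits were tested on simulated data. Promoters came from RefSeq (GRCm38.p6), and figures from matplotlib 3.10.9 (Python 3.11.15).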

Additional observations from a re-analysis of the deposited data

Results flagged for a closer look

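Among members at least 2-fold apart between KO and WT at 2 stages, with the brighter genotype above background at both, 3 had opposite signs without overlap of the genotypes. Fzd7 also changed sign, but its genotypes overlapped in blastocysts. It read 998 in KO and 351 in WT oocytes, and 46.2 and 280.0 against 200.5 and 355 in blastocysts (log2 -1.23). Its other probe set was higher in KO at both stages (log2 1.63 and 1.77), though below background in blastocysts. In each case the difference between the stages was not tested. Wnt8a was higher in KO oocytes (663 against 178) and lower at KO implantation sites (8.17 against 232), so that its log2 difference in oocytes minus that at implantation sites was 6.73. Fzd10 was higher in KO in oocytes (1103 against 365) and in blastocysts (3651 and 5699 against 699 and 1540) and lower at implantation sites (76.7 against 353), with 3.80 for oocytes minus implantation sites and 4.34 for blastocysts minus implantation sites. Wnt9a went the other way, lower in KO oocytes (92.3 against 253) and higher at KO implantation sites (323 against 51.6), with -4.10 for oocytes minus implantation sites. Its other probe set read 715 in KO and 137 in WT oocytes (log2 2.39) and differed by 1.69 in the same direction at implantation sites, where it was below background. Over the mean of the Wnt9a probe sets the oocyte difference was 0.47, so the opposite sign was lost. In all of these pairs at least 1 array was below the brightest Bacillus control.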

How the results depend on the processing

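Of the members called in the main fits, 8 of 15 between implantation site and blastocyst, 3 of 7 between implantation site and oocyte and 1 of 12 between blastocyst and oocyte were called under every alternative that could be run. The 8 include Wnt3, which was above background on no array. Counts moved by more than 1.5 times as follows. With only the upper 30% of probe sets, 7 members were called between implantation site and blastocyst and 6 between blastocyst and oocyte, since fewer members were tested. Averaging the probe sets of each gene gave 7 between blastocyst and oocyte. It ended the calls of Fzd2, Fzd4, Sfrp1, Wnt5a, Wnt6, Wnt7a and Wnt7b, which each have more than 1 probe set. The members called with averaging thus include some not called in the main fit, and the cause was not tested. A pseudocount left 9 members at least 2-fold apart between KO and WT at implantation sites. Against the median control in place of the brightest, 244 of 296 member readings were above background, against 142. With the brightest of all 27 Bacillus controls, an alternative chosen after seeing the data, they were 116. Leaving out 1 array gave 0 to 2 members called in blastocysts between KO and WT, 4 to 14 between blastocyst and oocyte, 10 to 15 between implantation site and blastocyst and 4 to 8 between implantation site and oocyte, where a lone array was assumed to vary like the others. Averaging the probe sets also reversed 4 log2 differences between KO and WT, to 0.028 for Dkk1 and 0.47 for Wnt9a in oocytes and to 0.49 for Sfrp1 and 0.36 for Wnt7b at implantation sites.

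With the replicate block in the blastocyst fit, 4 members were called (Fzd10, Wnt7a, Wnt10a and Wnt16), against 0 without it. The labels do not say that the numbers pair KO with WT arrays, and the numbers did not deviate together: across 18193 genes (not independent of each other) the correlation of the KO pair's difference with the WT pair's was 0.0029. Signal over background was the main limit: the 6 members below the brightest control on every array have no measured fold.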
